A study of Drosophila melanogaster with 3 samples.

Results

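Within introns, the protein encoded by CG13775 occupied 1281 sites that lay close to a gene start without being at it. They were taken from the 5862 optimal peaks of the study, that is, the peaks that passed the authors' irreproducible discovery rate (IDR) filter on the dm6 assembly. A peak was a member if its summit, the position of highest signal, lay inside a gene, in no annotated exon, and 501 to 5000 bp from the nearest transcription start site (TSS) of any gene. Members made up 21.9% of the optimal peaks (exact 95% interval 20.8 to 22.9). The other optimal peaks served as the reference in 4 classes. Of these, 3137 were promoter peaks within 500 bp of a TSS, 527 lay in introns more than 5000 bp from a TSS and are called deep intronic, 756 were intergenic and 161 lay in exons.

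The study is a chromatin immunoprecipitation followed by sequencing (ChIP-seq) of Drosophila melanogaster embryos with 1 group of 3 libraries, labelled as biological replicates 1, 2 and 4. All embryos came from 1 transgenic line, CG13775-GFP, that stably expresses CG13775 with GFP at its C terminus, and an anti-GFP antibody was used for the precipitation. Embryos of both sexes were collected over the whole of embryogenesis (0-24 hour) and processed as whole organisms, so each library averages over all cell types and stages. No control library was analysed here, and the labels do not say whether the embryo collections were separate, so the spread between libraries may be technical. The deposited lists hold called regions with a signal value of unstated scale and no read counts. Depth is therefore unknown, signal was read as a rank within a list, and the intervals cover counting error over peaks only.

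Introns near the 5′ end of fly genes often hold enhancers, alternative promoters and other regulatory elements, and long first introns are a common place for them. A ChIP peak in such an intron marks DNA that was recovered with the tagged protein, either by direct binding or through contact with other bound proteins or a looped promoter. It does not tell which gene, host or neighbour, is affected. Transcription factors recognise short DNA words, so the sequence under a summit and its base composition are the usual first descriptions of such a set.

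Of the 5 members with the highest signal, the one in HmgZ and HmgD (signal 3081) is not shown and its GC content not given. The sequences of the other 4 are shown because the low GC content of their summits recurs across the class. Each is the plus strand of dm6, 101 bp centred on the summit, with every match to CACTG or its reverse complement CAGTG in capitals. They lie in introns of CG11050 (chr2L:6612665-6612765), ush (chr2L:481014-481114), Trl (chr3L:14759474-14759574) and Lk6 (chr3R:11760996-11761096).
CG11050: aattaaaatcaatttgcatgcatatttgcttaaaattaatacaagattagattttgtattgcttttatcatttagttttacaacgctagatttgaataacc
ush: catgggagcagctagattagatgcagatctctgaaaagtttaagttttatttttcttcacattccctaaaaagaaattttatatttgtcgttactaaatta
Trl: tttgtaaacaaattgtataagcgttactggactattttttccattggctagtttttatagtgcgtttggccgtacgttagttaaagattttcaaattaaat
Lk6: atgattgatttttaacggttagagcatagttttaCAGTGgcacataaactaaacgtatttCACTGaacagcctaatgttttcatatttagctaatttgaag
Their GC contents were 22.8% at CG11050, 28.7% at ush, 29.7% at Trl and 30.7% at Lk6, against a mean of 39.5% over all 101-bp windows of the bases that meet the rule. Only the Lk6 window among these 4 held the marked word, at 2 positions in opposite orientation. Trl encodes the GAGA factor, ush a zinc finger cofactor of GATA factors, and Lk6 a protein kinase.

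A further 3 windows are shown because they carry the word TGCGGATG, in capitals, 3 times each; their signals were 1026, 1000.1 and 771. They lie in introns of cpx (chr3R:4284550-4284650), raskol (chrX:17712043-17712143) and sdt (chrX:8211244-8211344).
cpx: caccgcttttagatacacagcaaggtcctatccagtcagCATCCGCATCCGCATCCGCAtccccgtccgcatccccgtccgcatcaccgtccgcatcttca
raskol: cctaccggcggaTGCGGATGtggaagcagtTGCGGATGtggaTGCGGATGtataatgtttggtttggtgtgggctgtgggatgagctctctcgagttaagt
sdt: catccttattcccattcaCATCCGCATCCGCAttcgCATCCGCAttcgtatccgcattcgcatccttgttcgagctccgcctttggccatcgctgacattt
These windows differed from the 4 above in composition, with GC contents of 59.4% at cpx, 53.5% at raskol and 52.5% at sdt. cpx encodes complexin, a regulator of synaptic vesicle release, and sdt the polarity scaffold Stardust. Members of high signal that carry CACTG within 50 bp of the summit, beside Lk6, lay in CG9663 (chr2L:3302152-3302252) and in Tlk (chrX:3742182-3742282), which encodes a Tousled-like kinase.
CG9663: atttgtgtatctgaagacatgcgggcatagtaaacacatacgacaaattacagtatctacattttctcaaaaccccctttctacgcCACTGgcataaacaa
Tlk: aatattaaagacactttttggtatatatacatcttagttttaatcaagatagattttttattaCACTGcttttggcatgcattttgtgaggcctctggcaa
Each of these windows has 1 match, with GC contents of 38.6% at CG9663 and 29.7% at Tlk.

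Members were more frequent than their share of the genome, and more so the nearer they lay to a TSS. The bases that meet the rule cover 24.6 Mb, or 17.9% of the chromosome arms, so the members' share of 21.9% was 1.22 times that. Deep intronic peaks made up 8.99% of the optimal peaks and their bases 21.2% of the arms, a ratio of 0.424. From each library the 5862 regions with the highest signal were taken as its restricted list. There, members made up 22.8% of the regions in replicate 1, 22.4% in replicate 2 and 20.1% in replicate 4 (mean 21.8% ± 1.41, SD, n = 3). All 3 libraries thus lay above the 17.9% of bases. The share was much the same among weak regions, however. Of the 22610 regions called on the pool of all libraries that overlapped no optimal peak, 23.7% met the same rule, so the share by itself does not set the optimal peaks apart.

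Density along the intron did differ from that background. Members numbered 93.9 per Mb of intron at 501 to 750 bp from the nearest TSS, 53.7 per Mb at 1501 to 2000 bp and 35 per Mb at 4001 to 5000 bp, a 2.68-fold drop across the range of the rule. Beyond it, deep intronic peaks numbered 28.3 per Mb at 5001 to 7500 bp and 10.7 per Mb at 20001 to 50000 bp. In the restricted lists the same bins held 91.6 ± 4.08 per Mb at 501 to 750 bp and 33.1 ± 2.74 per Mb at 4001 to 5000 bp (SD, n = 3), so the difference exceeded the spread between libraries. The intronic regions of the pooled list that overlapped no optimal peak fell off less, with 269 per Mb in the nearest bin and 179 per Mb in the farthest. The median member lay 1561 bp from a TSS.

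**Figure D1:**
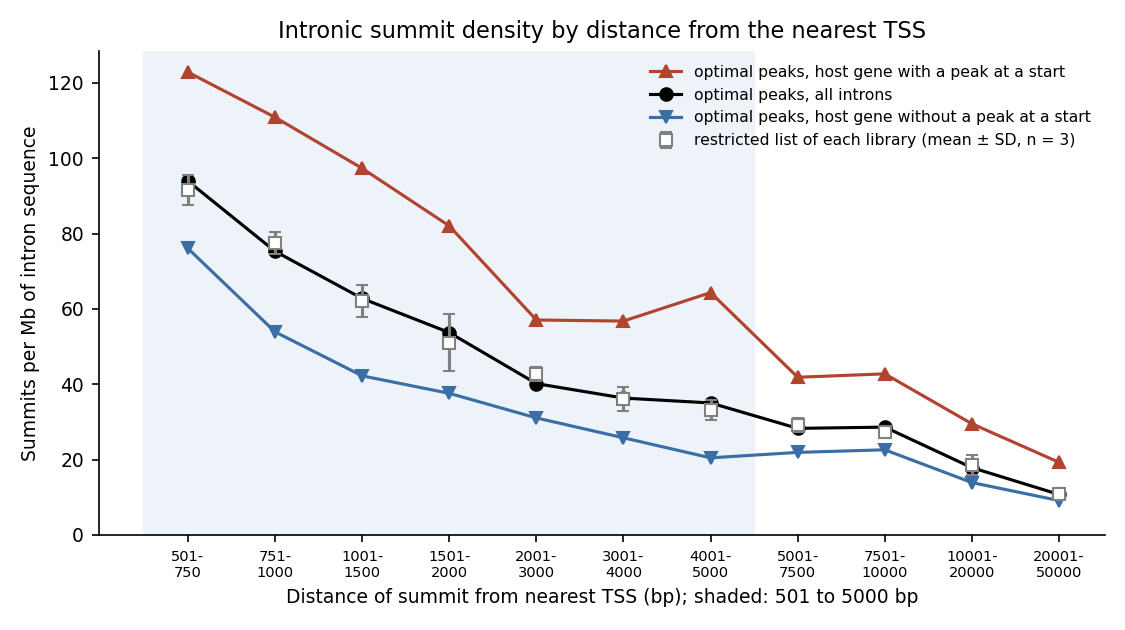
Summits per Mb of intron sequence (vertical axis) against distance from the nearest TSS in bins of bp (horizontal axis), for optimal peaks in host genes with a peak at a start, in all introns and in host genes without one, and as the mean ± SD of the 3 restricted library lists. In all introns density is 93.9 per Mb in the nearest bin and 35 per Mb at 4001 to 5000 bp, and host genes with a peak at a start lie above the others in every bin.

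Members were denser in genes that also carried a peak at a start. For 695 members (54.3%; exact 95% interval 51.5 to 57.0) a host gene had an optimal summit within 500 bp of one of its starts, whereas such genes hold 35.6% of the bases that meet the rule. The restricted lists gave 53.6% ± 1.27 (SD, n = 3), with bound starts taken from each list itself. The share of bases was not computed for those sets of genes, so 35.6% is no reference for these values. Expressed as density, members numbered 79.3 per Mb in such genes and 37.0 per Mb in the rest, and the ratio lay between 1.62 and 3.14 in each of the 7 distance bins of the rule. Of the intronic pooled regions that overlapped no optimal peak, 45.0% lay in such genes. Counted once per gene, 49.0% of host genes had a bound start, against 29.7% of the 9548 genes that hold any base meeting the rule. Host genes have more intron sequence than other genes, and the part of gene length in these shares was not tested. The intronic peak was the stronger of the pair in 281 of the 695 cases (40.4%), as at Trl, where the member had a signal of 3241 and the start 617.

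The nearest TSS belonged to a host gene of the member in 1047 cases (81.7%) and to another gene in the other 234. A summit lay downstream of its nearest TSS, in the direction of transcription, in 826 cases (64.5%), against 65.5% of the bases that meet the rule. In the restricted lists the downstream share was 64.6% ± 0.344 (SD, n = 3), so the share was not above that of the bases. First introns held more members than their share of the bases. Members lay in the first intron of a host transcript in 991 cases (77.4%; exact 95% interval 74.97 to 79.6), against 57.4% of the bases, with 77.1% ± 0.459 in the restricted lists (SD, n = 3). Among the intronic pooled regions that overlapped no optimal peak the share was 69.7%. The share of bases was not matched for distance from the TSS, along which density also fell. The part of distance in the first-intron excess was not tested. A second intron held 191 members and later introns 99. The introns were long, with a median of 7038 bp and a range of 140 to 132737 bp. No intron length over all bases that meet the rule is set beside this, and long introns hold more such bases. RefSeq placed no further start within 500 bp of any member, and 1278 members kept their class when its 22934 starts replaced those of Ensembl. Whether these annotations are independent was not checked, and a start missing from both would not be seen.

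In signal, members stood between promoter peaks and the other distal peaks. Their median signal was 260 (151.5 to 4143), against 295 for promoter peaks, 229 for deep intronic and 233 for intergenic peaks. Of the members, 613 (47.9%) fell among the 2931 optimal peaks of higher signal, which by construction are 50% of all. That was fewer than the 55.9% of promoter peaks (Fisher's exact test, two-sided, adjusted p = 5.19e-06). By Fisher's exact test it was more than the 35.7% of deep intronic peaks (adjusted p = 5.19e-06) and the 40.2% of intergenic peaks (adjusted p = 0.00112). The last of these was lost when the peaks were limited to those supported in any 2 of the libraries (adjusted p = 0.0924 to 0.229, Fisher's exact test). P-values were adjusted over 5 class comparisons, and they treat peaks as independent. Within the distance range, the share among those 2931 was 59.8% at 501 to 750 bp and 37.4% at 4001 to 5000 bp. In the bins between, from 751 to 4000 bp, it lay between 43.4% and 50.2% with no steady fall.

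Support across libraries followed the same order, but it is set by signal rank in the same libraries and so is not separate from signal. An optimal peak counted as supported where it overlapped the restricted list of every library, which held for 73.3% of all optimal peaks. Members reached 73.5% (941 of 1281), against 77.3% of promoter peaks (Fisher's exact test, two-sided, adjusted p = 0.00722) and 63.6% of deep intronic peaks (adjusted p = 5.6e-05). The first difference rested on replicate 4. Without it, 81.4% of members and 82.0% of promoter peaks were supported (adjusted p = 0.668, Fisher's exact test). No restricted list was overlapped by 7 of the 1281 members, 10 of the 3137 promoter peaks and 27 of all 5862 optimal peaks. By this count members were not better supported than the whole. At the median of the class the percentiles were close between libraries. The median member stood at percentile 90.8 of the 30000 regions of replicate 1, 90.3 of replicate 2 and 89.9 of replicate 4. Single members varied more, as 1 in CG1677 that ranked 1823, 11155 and 6341 in these libraries. The class medians differed from those of all other optimal peaks by −0.463, −1.02 and −1.33 percentile points, a mean of −0.939 ± 0.441 (SD, n = 3; exact sign-flip permutation test, two-sided, p = 0.25, the smallest 3 libraries allow).

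The hosts of the strongest members included genes for chromatin proteins, transcription factors and kinases. The highest signal of all (4143) lay in the second intron of CG11050 (FBgn0031836), 1028 bp from its start, in an intron of 140 bp. It ranked 6 in the optimal list and 6, 7 and 5 in replicates 1, 2 and 4. The next, in the first intron of ush, ranked 11, 12 and 7 in those libraries and lay nearest to the start of cbt, a zinc finger gene, 1376 bp away. At Trl the member ranked 10, 11 and 9, in the second intron and 1525 bp from a Trl start. The fourth, with a signal of 3081, lay in overlapping introns of HmgZ and HmgD, both of which encode DNA-binding HMG-box proteins, and ranked 13, 9 and 14. At Lk6 the ranks were 18, 20 and 12. These 5 therefore stayed within the first 20 regions of every library.

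Among the next 15, several hosts encode regulators of chromatin or transcription. The trx member (signal 1469) lay in the first intron of the gene for the trithorax histone methyltransferase, 3028 bp from a TSS, at ranks 99, 97 and 121. The simj member (1431), in the gene for a subunit of the NuRD complex, had ranks 186, 169 and 75. Kdm2 encodes a JmjC-domain histone demethylase, and its member (1386) had ranks 263, 126 and 73. Both varied more between libraries than the trx member. wde (1488), whose product assists a histone H3K9 methyltransferase, Smr (1360), a corepressor gene, and Adf1 (1750), a transcription factor gene, completed this set. Kinase hosts were Tlk (1851; ranks 63, 88 and 37) and for (1391; ranks 127, 227 and 99), which encodes a cGMP-dependent protein kinase. chif, which encodes the regulatory subunit of the replication kinase Cdc7, overlaps Hyls1 at its member (1502; ranks 121, 195 and 68). Other hosts were CG32772 (2286), CG9663 (1913), CG12769 (1735), LPCAT (1354), an acyltransferase gene, CG1677 with lncRNA:CR44357 (1348), and mub (1335), which encodes an RNA-binding protein with KH domains. No member of the 20 ranked below 263 in any library, out of 30000 regions. The host starts of HmgZ and HmgD, CG32772, Tlk, CG12769, trx, simj, Kdm2, Smr and mub had no optimal summit within 500 bp.

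**Figure D2:**
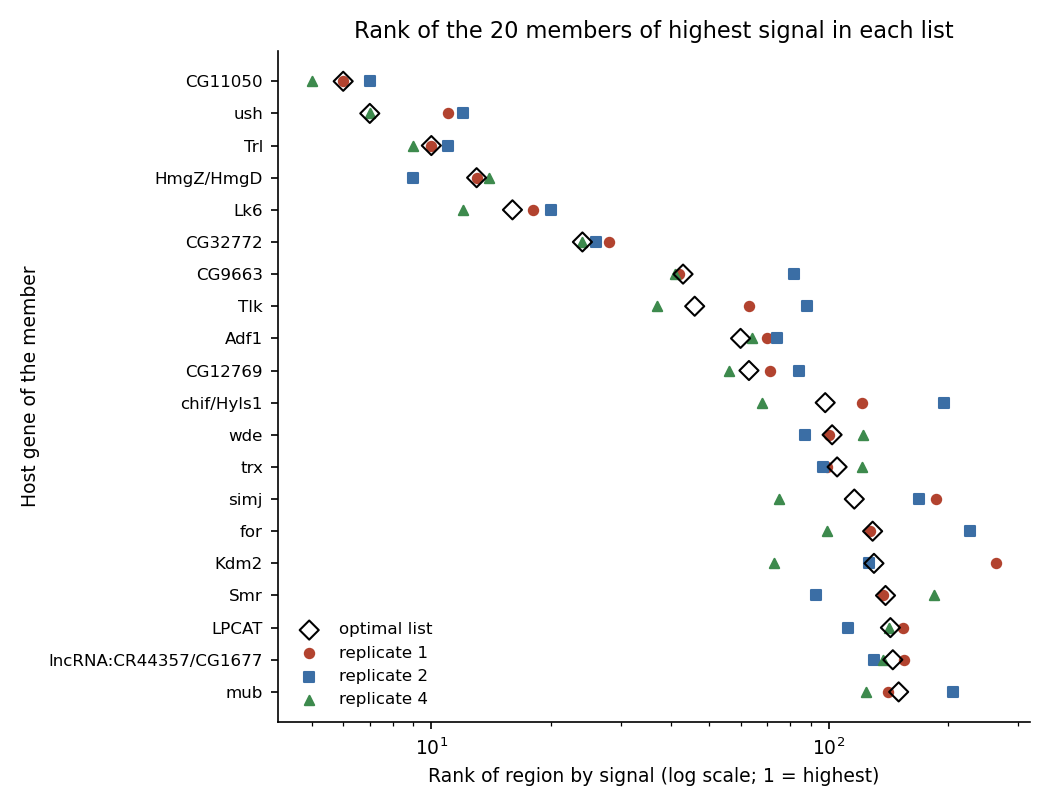
Rank by signal (horizontal axis, log scale, 1 is the highest) of the 20 members with the highest signal in the optimal list and in replicates 1, 2 and 4, with host genes down the vertical axis. All points lie between rank 5 and rank 263, and the spread between libraries is widest for Kdm2 and chif/Hyls1.

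Members were spread over 828 host genes, which is 8.67% of the 9548 genes with bases that meet the rule. Of these, 553 held 1 member, 148 held 2, 65 held 3 and 62 held 4 or more. Nested and overlapping genes put 93 members in more than 1 gene, and 22 members had no protein-coding host. Whether a gene held a member followed its intron length closely, from 0.772% of the 5955 genes with up to 1 kb of bases that meet the rule to 52.2% of the 228 genes with more than 20 kb. Per length the order was the opposite above 1 kb, with 7.42 members per 100 kb in genes with 1 to 2 kb, 5.42 in genes with 5 to 10 kb and 4.86 in genes with more than 20 kb.

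The hosts with the most members included genes for signalling and transcription. shn, a zinc finger gene of the Dpp signalling pathway, held 12 members with signals from 153 to 750 (34.7 per 100 kb), of which 8 were supported in every library. The forkhead gene CHES-1-like held 10 with signals from 174 to 932, or 68.2 per 100 kb of the bases that meet the rule. CG43658 also held 10, but in 44.5 kb and with a top signal of only 347. Tlk held 9, and ush, tou and pnt held 8 each. tou encodes a chromatin remodelling protein and pnt an ETS activator downstream of Ras signalling; the top member was 887 in tou and 528 in pnt. With 7 each, tna, psq and SNF4Agamma followed, which encode a protein with an SP-RING domain, a BTB-domain DNA-binding protein and the gamma subunit of AMP-activated kinase. All of these compare with 5.21 members per 100 kb over the whole of the rule's bases.

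The largest number, 13, fell within CG1677 and the overlapping lncRNA:CR44357 on the X chromosome, and this is a region of nested genes. The strongest of the 13 (signal 1348; ranks 155, 130 and 137) lay 710 bp upstream of brk, the gene for the repressor Brinker that keeps Dpp target genes off. A second member lay 1976 bp upstream of brk (signal 388; ranks 1481, 1864 and 1779). A group of 4 lay between −15.9 and −13.6 kb of the brk start, with unc-119 as the nearest start and signals of 171 to 490. A further 7 lay 11.3 to 30.8 kb downstream of the brk start, next to Atg5, Dok, CG42780 and CBP, with signals from 210 to 795. brk itself had no optimal summit within 500 bp of its start. Of the 13, 11 were supported in every library.

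Gene lists by function were drawn up with results of these data known. In them, genes of embryonic signalling pathways held members more often than the average gene, which has less qualifying sequence. Homeobox genes held them at about the average share but at a low density per length. In the receptor tyrosine kinase and Ras pathways, 18 of 43 genes with bases that meet the rule held a member (41.9%), against 8.67% over all genes. The median gene of this list has 4.22 kb of such bases and the median of all genes 0.45 kb. Of all genes with 2 to 5 kb of such bases, 16.4% held a member, with 25.6% at 5 to 10 kb, 36.7% at 10 to 20 kb and 52.2% above 20 kb. Some hosts of the list are in the longer bins, such as Raf with 17.3 kb and ths with 27.2 kb. Neither this list nor the others were matched for length. Per length, the list had 9.18 members per 100 kb, against 5.21 over all. The kinase gene Raf held 5 members, all supported in every library, with a top signal of 986. aos, which encodes the secreted EGF receptor inhibitor Argos, had 1 member of 930. edl, which encodes a modulator of ETS factors, had 2 with a top signal of 808, and drk, the Grb2-like adaptor gene, had 1 of 602. The Wnt and Hedgehog list had 14 of 36 genes with a member (38.9%; 10.4 per 100 kb). It was led by the Wnt co-receptor gene arr (673), the Wnt antagonist gene nkd (603), the glypican gene dlp (531, 4 members) and the casein kinase gene dco (377).

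In other pathways smaller shares of the genes held a member, between 25.8% and 26.3%. In the TGF-beta, JAK/STAT and Hippo list, 11 of 42 genes held a member (9.18 per 100 kb), with the top signals at Mad (633), the transducer of Dpp signalling, crb (452), wit (385) and Ptp61F (373). For the Notch pathway it was 5 of 19 (7.16 per 100 kb), with 927 at mam, which encodes the coactivator Mastermind, and 468 at neur, which encodes a ubiquitin ligase. Nak (289) and fng (209) were the next 2. Axon guidance and cell adhesion genes held members in 16 of 62 cases but at 3.68 per 100 kb, below the density over all genes. kirre held 6 in 106.9 kb of such bases (top signal 714), and mew (688), Ten-a (444) and Sema1a (392) followed.

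Among transcription factor genes, the lists split. Zinc finger and other developmental regulators held members in 26 of 76 genes (34.2%; 11.6 per 100 kb), led by ush, grh (867), shn (750) and aop (732), the ETS repressor gene Yan. For bHLH genes it was 9 of 30 (9.08 per 100 kb), led by SREBP (623) and crp (564), with tai (332) and Mnt (324) next. The nuclear receptor and ecdysone list had 8 of 25 (5.19 per 100 kb), with Hr4 (814), ImpL2 (814), EcR (487) and Hr3 (483). Homeobox genes held members in 5 of 62 cases (8.06%; exact 95% interval 2.67 to 17.8), close to the 8.67% over all genes. Their density was 1.63 per 100 kb, and their median of 3.86 kb of such bases is above that of all genes. The 4 of highest signal were Abd-B (887), hbn (384), Antp (299) and tup (192). Ion channel and synaptic genes had a density of 1.74 per 100 kb, with members in 7 of 58 genes (12.1%), led by cpx (1026), KCNQ (862), Nmdar2 (467) and Irk1 (462).

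The chromatin list had the highest density of the lists with more than 1 host, 17.7 per 100 kb, with members in 13 of 58 genes (22.4%) whose median length of such bases is 0.776 kb. Its leading hosts were Trl, HmgD, HmgZ and trx, and the member shared by HmgD and HmgZ counts for each of them in this density. Insulator genes held members in 1 of 14 cases, at Trl alone. RNA-binding and splicing genes held members in 18 of 51 (5.61 per 100 kb; mub 1335, brat 855, pum 584, shep 474). Kinase and phosphatase genes held them in 18 of 59 (8.76 per 100 kb; Lk6 2762, for 1391, Mekk1 968, mnb 661). Cytoskeletal and small GTPase genes held them in 17 of 61 (6.41 per 100 kb; Dhc64C 936, Msp300 727, RhoGAP18B 660, mbc 649). Of 16 circadian clock genes 6 held members (10.6 per 100 kb), led by kay (431), Pdp1 (387), dco and vri (259). No cytoplasmic ribosomal protein gene of 27 and no proteasome gene of 25 held one, but these lists offer only 5.34 kb and 3.36 kb of qualifying bases in all. Of the 18 lists, 14 exceeded 8.67%, and 15 had a median length of such bases above that of all genes. No test was made of any list, and the lists were drawn up with results of these data known.

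**Figure D3:**
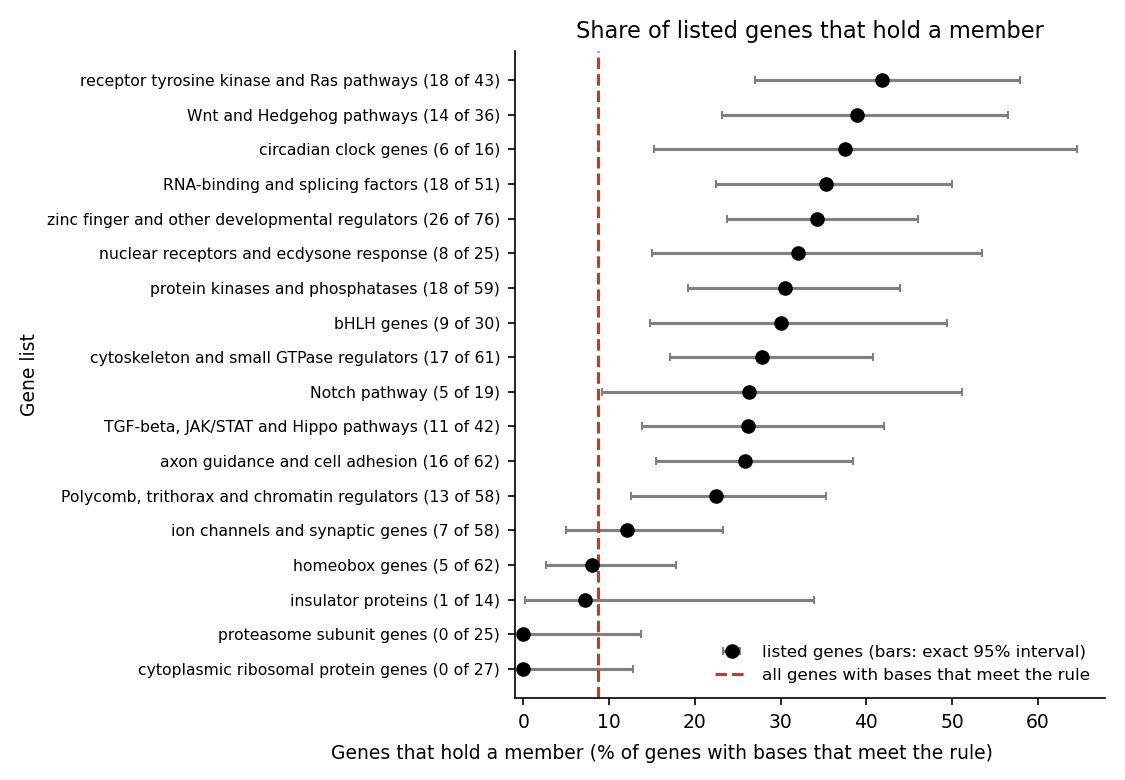
Share of genes that hold a member (horizontal axis, percent of genes with bases that meet the rule, bars are exact 95% intervals) for 18 gene lists (vertical axis, with counts). The dashed line is the 8.67% over all genes; homeobox, insulator, proteasome and ribosomal protein genes lie below it with intervals that include it, and receptor tyrosine kinase and Ras pathway genes are highest at 41.9%.

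The base composition at member summits was low in G and C and formed a narrow dip. Windows of 101 bp at the summit had a mean GC content of 32.7%, against 43.6% in windows centred 300 bp away on the side away from the nearest TSS, and the summit was the lower of the pair in 1025 members (80.0%). In the restricted lists the summit mean was 33.3% ± 0.513 and the flank mean 43.6% ± 0.148 (SD, n = 3; the libraries share most of their summits, so this spread is small by construction). The flank lay above the 39.5% of all windows of the bases that meet the rule. Flank windows were not limited to introns, however, so these values are not fully alike. The intronic pooled regions that overlapped no optimal peak had 40.8% at the summit and 42.9% in the flank, a far shallower dip. The GC content at the summit was lower in stronger members, with 31.0% in the upper tercile of signal, 33.1% in the middle and 34.2% in the lower. Deep intronic summits averaged 32.6%, intergenic 33.9% and promoter summits 34.8%, whereas exonic summits averaged 42.01%. No source used here states a correction of the signal for GC content, and the part of sequencing or fragmentation bias in this dip was not tested.

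**Figure D4:**
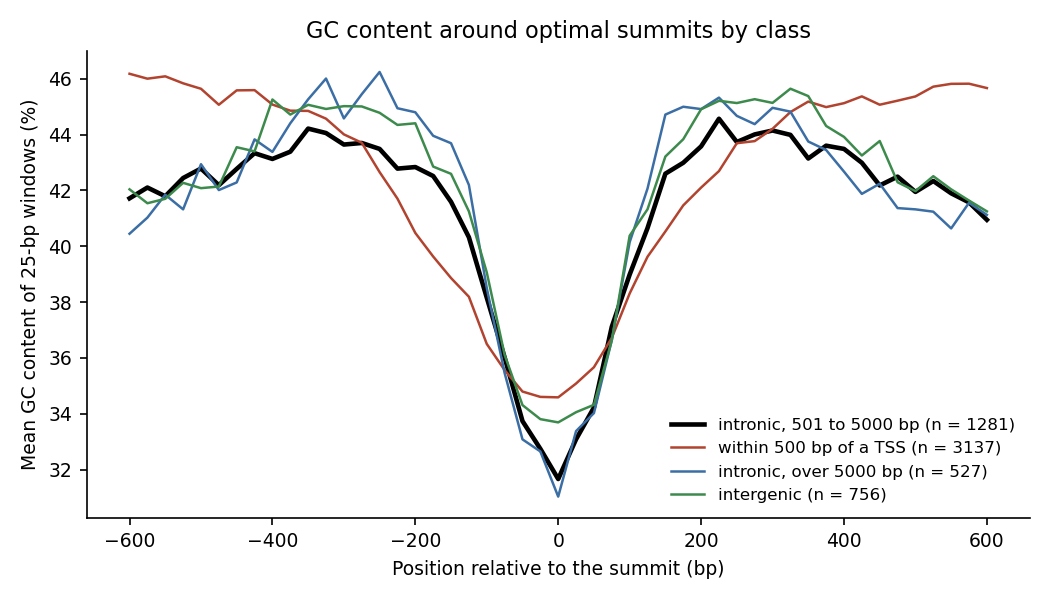
Mean GC content of 25-bp windows (vertical axis, percent) against position relative to the summit (horizontal axis, bp) for members, promoter, deep intronic and intergenic optimal peaks. All 4 curves dip at the summit and lie above the 39.5% of all windows at 200 bp on both sides, and the dip is shallowest in promoter peaks.

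The 20 short words searched were mostly sites of transcription factors or promoters, with a dinucleotide repeat, a splice donor and a word from an earlier analysis of these data. Members differed from their own flanks in 7 of the 20 (35%; exact McNemar tests, two-sided, adjusted over all words). AT-rich words were more frequent at the summit. By the exact test, TATAAA was present in 308 members (24.0%) and in 10.2% of flanks (adjusted p = 6.03e-20), TAATTA, the core of many homeodomain sites, in 10.4% and 5.85% (adjusted p = 0.000171), and AGATAA, the GATA factor core, in 8.74% and 5.93% (adjusted p = 0.0272). Over all optimal peaks these words were at 22%, 10.4% and 7.23%. In windows of the rule's bases weighted to the same GC content the 3 shares were 22.5%, 11.7% and 8.56%, next to 24.0%, 10.4% and 8.74% in members. Lower at the summit were CACACACA (1.25% against 6.25%, adjusted p = 1.15e-10; 1.07% of all optimal peaks), GAGAGAG (0.937% against 3.83%, adjusted p = 8.28e-06; 1.14%) and the E-box CAGCTG (2.89% against 5.93%, adjusted p = 0.000713; 3.84%), all by exact McNemar tests. In windows of equal GC content these 3 were at 1.53%, 0.865% and 2.21%, next to 1.25%, 0.937% and 2.89% in members, so GAGAGAG and CAGCTG were not below that level. The CAGCTG call was lost with flanks at 500 bp (adjusted p = 0.156, exact McNemar test). The AGATAA difference was lost without any 1 of the libraries (adjusted p = 0.0871 to 0.118, exact McNemar test).

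The word TGCGGATG was rare but concentrated at summits. It was present in 14 members (1.09%), in 3 of their flanks (0.234%; exact McNemar test, adjusted p = 0.0364) and in 1.81% of all optimal peaks. Its share was 0.151% in windows of the rule's bases weighted to the GC content of members, a ratio of 7.24, and 0.296% in all such windows. That weighting follows the low GC content of the class, whereas the cpx, raskol and sdt windows with this word are rich in G and C. The word was at 1.05% in promoter peaks and 1.71% in deep intronic peaks. It was at 0.616% in the intronic pooled regions that overlapped no optimal peak. In the restricted lists 1.15% ± 0.111 of the corresponding regions had it (SD, n = 3). The word had been picked in an earlier analysis of these data, so its test is not independent, and the call was lost without replicate 1 (adjusted p = 0.0912), with 25 bp to each side (0.0716), with flanks at 500 bp (0.498) and in the 2931 peaks of higher signal (0.313; exact McNemar tests). As the cpx, raskol and sdt windows show, part of these matches lie in short tandem arrays.

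Several words of promoters were rarer in members, which by the rule lie more than 500 bp from any TSS. No share in promoters without a peak is given, so the part of location alone was not tested. Members differed from promoter peaks in 6 of the 20 words (30%; Fisher's exact tests, two-sided, adjusted over the 20). CGATA, the core bound by BEAF-32, was present in 127 members (9.91%) and in 22.9% of promoter peaks (Fisher's exact adjusted p = 5.46e-24), against 17.1% of all optimal peaks. The full DREF site TATCGATA, which contains it, was present in 1 member (0.0781%) and in 4.14% of promoter peaks (Fisher's exact adjusted p = 1.07e-17; 2.34% of all). GGTCACAC, part of the core promoter element bound by M1BP, was in 0.234% and 2.14% (Fisher's exact adjusted p = 1.26e-06; 1.3% of all), and CCGGAA, the ETS core, in 0.859% and 2.71% (adjusted p = 0.000269; 2.27% of all). The E-box was at 2.89% and 5.13% (Fisher's exact adjusted p = 0.00385), and AGATAA was the only word higher in members, at 8.74% and 6.53% (adjusted p = 0.0403). That AGATAA call was lost without any 1 of the libraries (adjusted p = 0.137 to 0.348), with 25 bp to each side (0.485) and in the 2931 peaks of higher signal (0.855; Fisher's exact tests). In those 2931 peaks GGTCACAC (0.293) and CAGCTG (0.425) did not pass either. CGATA was at 9.91% at member summits, next to 10.3% in their flanks and 10.5% in windows of equal GC content. Against deep intronic peaks 0 of the 20 words passed (0%); CAGCTG alone had an unadjusted p under 0.05 (2.89% against 1.14%, Fisher's exact p = 0.0267). With 100 bp to each side it passed (7.49% against 3.61%, adjusted p = 0.0391, Fisher's exact test).

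Of all 512 words of 5 letters, CACTG had the largest excess over windows of equal GC content, and it gathered beside the summit. The word was chosen after these windows were seen, so its values are a description with no test. It was present in 286 members (22.3%) within 50 bp of the summit, against 11.1% of windows of equal GC content, a ratio of 2.02. Other backgrounds lay closer to the members: the word was in 14.7% of all windows of the rule's bases, whatever their GC content, in 17.3% of the members' own flanks and in 19.9% of the intronic pooled regions that overlapped no optimal peak. All optimal peaks had it at 21%, promoter peaks at 20.5% and deep intronic peaks at 19.9%. With distance from the summit, its density in members had 2 maxima, one on each side. At 40 to 100 bp from the summit it reached 3.96 matches per kb over both strands, against 2.00 per kb at 200 to 300 bp, a ratio of 1.98. In the restricted lists, which share most of their summits, that ratio was lower, at 1.74 ± 0.0245 (SD, n = 3). Deep intronic peaks had a ratio of 2.00 and intergenic peaks 2.21, while promoter peaks had 1.28 and the intronic pooled regions that overlapped no optimal peak 1.16. At 40 to 100 bp, the orientation that reads CACTG toward the summit occurred at 2.16 per kb and the opposite at 1.795 per kb in members; in intergenic peaks these were 2.90 and 1.25 per kb.

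**Figure D5:**
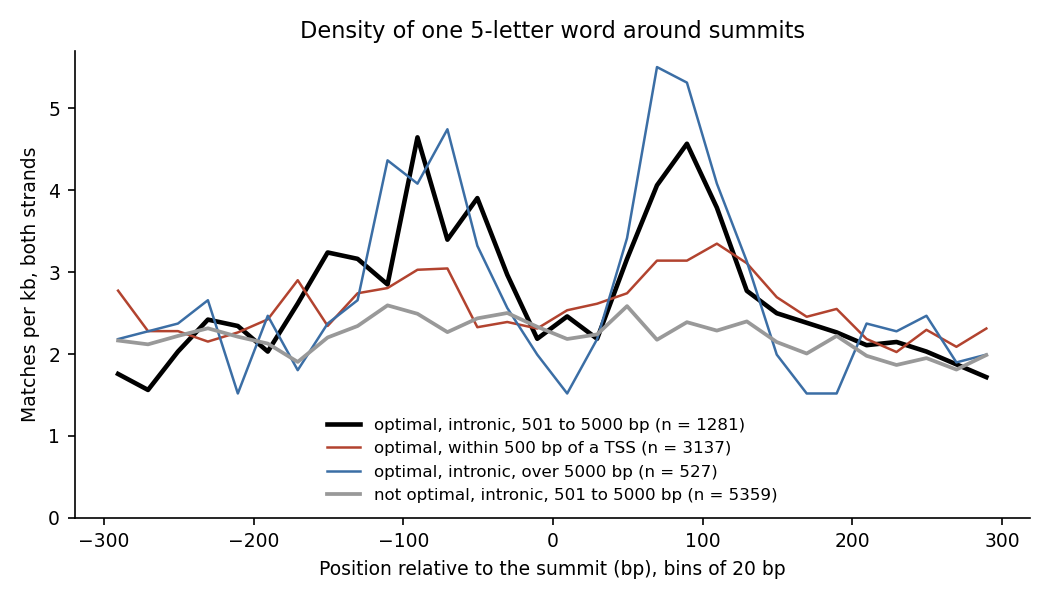
Density of CACTG, counted on both strands (vertical axis, matches per kb), against position relative to the summit (horizontal axis, bp, bins of 20 bp), for members, promoter peaks, deep intronic peaks and intronic pooled regions that overlap no optimal peak. Members and deep intronic peaks show a maximum on each side of the summit, where members reach 3.96 per kb at 40 to 100 bp, and the regions that are not optimal stay almost level.

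Within 100 bp of the summit, 648 members (50.6%) had no match, 456 (35.6%) had 1 and only 3 (0.234%) had 4. The window of 1 of these 3 is shown, and it is not typical of the class. The sequence is the plus strand of dm6, 201 bp centred on the summit, with the matches in capitals, from CHES-1-like (chrX:7700300-7700500).
CHES-1-like: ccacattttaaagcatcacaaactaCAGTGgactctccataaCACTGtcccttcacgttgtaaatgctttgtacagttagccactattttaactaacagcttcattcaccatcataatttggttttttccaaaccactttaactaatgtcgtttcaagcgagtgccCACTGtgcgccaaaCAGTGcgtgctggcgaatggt
The matches fall in a pair to the left and a pair to the right of the summit. The CHES-1-like member had a signal of 432 and ranks of 1168, 1046 and 2529 in replicates 1, 2 and 4. Across the class, 177 members (13.8%; exact 95% interval 11.97 to 15.8) had 2 or more matches within 100 bp, against 11.03% of promoter peaks, 13.3% of deep intronic peaks, 14.6% of intergenic peaks and 8.49% of the intronic pooled regions that overlapped no optimal peak. A longer form, ACACTGAG, also chosen after the windows were seen, lay within 150 bp of 59 member summits (4.61%; exact 95% interval 3.52 to 5.90). It was at 1.63% in promoter peaks (1.21 to 2.13), 6.45% in deep intronic peaks (4.51 to 8.90), 7.01% in intergenic peaks and 1.85% in the intronic pooled regions that overlapped no optimal peak.

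Along the chromosomes, X held more members than its share of qualifying introns. It had 311 members (24.3%; exact 95% interval 22.0 to 26.7), against 19.7% of the bases that meet the rule and 16.4% of promoter peaks. The restricted lists gave 24.2% ± 0.181 (SD, n = 3), and the intronic pooled regions that overlapped no optimal peak 19.7%. Per Mb of the rule's bases X held 64.2 members, 3R 52.8, 3L 52.6, 2R 48.5 and 2L 44.8. The CG1677 region (13 members), CHES-1-like (10), CG43658 (10) and Tlk (9) are all on X. Chromosome 4, which is largely heterochromatic, held 1 member, or 0.0781% (exact 95% interval 0.00198 to 0.434), against 1.28% of the bases, and Y held none, against 0.221% of the bases.

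The limits of the rule cut through a continuous range. Just inside the near limit were members in CG10543 (501 bp, signal 426) and CG5854 (502 bp, 338), and just outside it peaks in RhoGAP68F (499 bp, 216) and Pino (500 bp, 394). Just inside the far limit were members in cno (4997 bp, signal 569) and fz2 (5000 bp, 161), and just outside it peaks in dnt (5007 bp, 273) and cv-c (5009 bp, 161).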

How the data were processed

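ChIP-seq regions of 3 libraries (1 group) were analysed. Per the labels, they are biological replicates 1, 2 and 4. Per the records deposited with the files, the authors called regions on dm6 in each library and on the pooled libraries with a control of unstated kind, and filtered them by IDR. The aligner, peak caller and their versions are not given in the sources used here. The signal values are the authors' own, deposited per region with no stated scale, and served only to rank regions within a list.

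Summits were classed with Ensembl 115 genes (BDGP6.54; 18277 genes, 23694 distinct starts, no transposable elements). The restricted list of a library was its top 5862 regions by signal, and overlap meant at least 1 bp. The lists of dm3 were not used. Fisher's exact tests (5 class comparisons, 20 words per comparison) and exact McNemar tests (20 words) were two-sided, with Benjamini-Hochberg adjustment and a threshold of 0.05; a sign-flip permutation over libraries was exact. These tests count peaks as independent. Intervals are exact (Clopper-Pearson) at 95%. Words were matched on either strand up to 50 bp from summits and in windows centred 300 bp away, which were not limited to introns. The background of equal GC content came from 224504 tiled windows of 101 bp, weighted by steps of 5 G or C bases. Sequences were read from the Release 6 genome (RefSeq). Named genes were the hosts of the 20 members of highest signal, the 10 hosts with the most members, up to 4 hosts of highest signal per gene list, and the peaks at the distance limits; raskol and sdt (for their sequences), psq and SNF4Agamma (level with the tenth host in members), and brk, cbt, unc-119, Atg5, Dok, CG42780 and CBP (nearest starts) were named after their values were seen. Members, lists and words were chosen with earlier results of these data known. Procedures were tested on simulated data. Python 3.11.15, scipy 1.17.1, pandas 2.3.3 and statsmodels 0.14.6 were used.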

Additional observations from a re-analysis of the deposited data

How the results depend on the processing

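Across 94 recomputed values of the comparisons, 69 were counted as the same and none reversed. For tests this meant the same direction and call, and for shares a move of less than the spread between libraries. Counts of host genes and of called words were held to a looser limit on their ratio. By that limit 664 host genes, for members supported in every library, counted as the same as 828. Members made up 15.5% of the optimal peaks when the inner limit was 1 kb. Their excess over intergenic peaks among the 2931 peaks of higher signal was 3.98 to 5.10 percentage points without 1 replicate in turn (7.64 with all), and did not pass. Support in every library differed from promoter peaks by −0.214 points and from deep intronic peaks by 0.659 points within those 2931 peaks, where nearly all peaks are supported, and the promoter difference ranged from −4.99 to −0.537 without 1 replicate in turn. The downstream share was 62.2% within them, 67.5% with the 1 kb limit and 65.7% with coding starts only; the first-intron share was 74.8% and 78.5% under the last 2 of these and 77.9% to 78.1% without 1 replicate in turn. The share with a bound host start was 36.2% within the 2931 peaks, where fewer peaks remain to mark starts, 55.7% with coding starts, 44.1% to 47.2% without 1 replicate in turn, where peaks must be supported in both other libraries, and 49.0% counted once per host gene. The 2931 peaks left 495 host genes, 107 with several members, and 3 words called against promoter peaks. Windows of 100 bp to each side gave 1 word against deep intronic peaks. For single words, 18 of 85 values lost their call, each with the same sign. The RefSeq starts and the count per host gene were chosen after seeing the data. No paired analysis was possible because all libraries belong to 1 group. Depth limits are unknown, since the lists hold no reads.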
